A study of Mus musculus with 12 samples.

Results

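Vegfa, Igfbp2, Spock2, Sema3a, Timp3, Col4a3 and Col4a4 are 7 genes for secreted or matrix proteins that alveolar type 1 (AT1) cells make, out of 21883 protein-coding genes annotated on the build mm10. They were taken by name, and every peak over each gene body and 50 kb on either side was collected from 9 deposited peak lists. A peak was linked to a gene when an end of that gene was the nearest annotated gene end to the middle of the peak. The lists come from CUT&RUN, in which an antibody brings a nuclease to its target so that nearby DNA is cut out and sequenced. The 6 factor libraries were split into 3 of NKX2-1, 2 of PRDM16 and 1 of PRDM3, beside 3 libraries of the histone mark H3K4me3. All were made from wild-type C57Bl6 fetal lung at E17.5, with lungs pooled and epithelial cells taken with EpCAM microbeads, 100000 cells to a reaction. AT1 cells were not separated from other epithelial cells, so a peak may come from any EpCAM-positive cell. PRDM16 replicate 1 used an antibody raised in rabbit and replicate 2 one raised in sheep, PRDM3 had no replicate, and the 3 IgG samples were not analysed here. The labels do not say whether replicates came from separate pools of animals.

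AT1 cells are the thin, flat cells across which gas is exchanged, and they lie on a basement membrane that they share with the capillaries. They signal to their surroundings through secreted proteins and build part of that membrane themselves. Vegfa encodes a growth factor for endothelial cells and Sema3a a secreted guidance cue that acts through neuropilin and plexin receptors. Igfbp2 encodes a binding protein that holds insulin-like growth factors outside cells, and in the mouse it marks mature AT1 cells. Spock2 encodes a secreted proteoglycan and Timp3 an inhibitor of metalloproteinases that stays bound to the matrix. Col4a3 and Col4a4 encode type IV collagen chains that assemble with the chain of Col4a5 into the network of mature basement membranes. NKX2-1 is the homeodomain factor that lung epithelial cells need for their identity, PRDM16 and PRDM3 (the product of Mecom) belong to the same family of zinc-finger proteins, and H3K4me3 is a histone mark found at the starts of active genes.

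The 250 bases before the annotated start are shown for 3 of the genes, whose starts differed in how many lists covered them. The Timp3 stretch (chr10:86300162-86300411, plus strand) was covered by a peak in all 9 lists. The Vegfa stretch (chr17:46032378-46032627, minus strand) was covered in 8 lists, NKX2-1 replicate 2 being the exception, and the Spock2 stretch (chr10:60106007-60106256, plus strand) in that of H3K4me3 replicate 2 alone. Covered means that a peak shared at least 1 base with the stretch. The H3K4me3 replicate 2 peak began at base 60106253, so it reached only the end of the Spock2 stretch. That of replicate 3 began just past it, at 60106261. The last line is the 71 bases between the starts of Col4a4 and Col4a3 (chr1:82586850-82586920), which are transcribed away from each other, read along the strand of Col4a4. Sequences are from RefSeq, build GRCm38.p6, which is the assembly of mm10, 5′ to 3′, and the capitals mark the 2 matches described after them.
Timp3: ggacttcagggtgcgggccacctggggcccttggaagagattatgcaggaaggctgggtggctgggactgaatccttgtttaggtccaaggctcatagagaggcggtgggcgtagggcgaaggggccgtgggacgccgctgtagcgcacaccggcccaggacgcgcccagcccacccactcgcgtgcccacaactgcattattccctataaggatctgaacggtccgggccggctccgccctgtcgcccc
Vegfa: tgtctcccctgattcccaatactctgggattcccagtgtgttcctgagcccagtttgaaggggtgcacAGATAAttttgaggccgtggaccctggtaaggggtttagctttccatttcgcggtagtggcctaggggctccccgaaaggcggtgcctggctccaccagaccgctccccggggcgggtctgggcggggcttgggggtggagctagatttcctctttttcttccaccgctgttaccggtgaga
Spock2: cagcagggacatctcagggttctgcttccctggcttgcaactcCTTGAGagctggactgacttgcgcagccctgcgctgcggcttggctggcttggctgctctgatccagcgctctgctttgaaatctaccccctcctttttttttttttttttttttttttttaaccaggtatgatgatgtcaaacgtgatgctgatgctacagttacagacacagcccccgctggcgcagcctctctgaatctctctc
Col4a4 to Col4a3: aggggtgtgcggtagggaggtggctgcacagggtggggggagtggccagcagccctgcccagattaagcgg

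The letters GC made up 65.6% of the Timp3 stretch, 59.2% of the Vegfa stretch, 51.2% of the Spock2 stretch and 69% of the bases between the collagen starts. The median over 32851 such promoter stretches was 52.4%. Short cores were searched for on both strands in the 8 stretches listed for 6 of the genes. Neither CACTTG, a core of the NKX2-1 site held by 11.6% of all promoter stretches, nor GATGAG, a PRDM3 core held by 10.1%, was present. CTCAAG, another NKX2-1 core (13.3% of all), was found on the reverse strand before Spock2, at position -207 from the start, and before the second start of Igfbp2, at -41. AGATAA, another PRDM3 core (9.99% of all), was found at position -182 from the Vegfa start. No stretch held more than 1 match, so none overlapped. The match before Spock2 lay in a stretch with no factor peak, and Timp3, covered in all lists, had no match. The NKX2-1 core before Igfbp2 lay in a stretch that a peak of NKX2-1 replicate 3 overlapped, without the other NKX2-1 replicates. The PRDM3 core before Vegfa lay in a stretch that a PRDM3 peak overlapped.

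The lists differ in length and strength, which sets how the peaks at these genes can be read. They held 52716, 62996 and 79511 peaks for NKX2-1, 111489 and 79072 for PRDM16, 52283 for PRDM3 and 19117, 15583 and 14646 for H3K4me3. Fold enrichment, the authors' ratio of a peak to background, was on a different scale in each, so its rank within its own list is given as a percentile, with 100 the strongest. A −log10 q of 5 or more was reached by 24.6% of the peaks of NKX2-1 replicate 1 but 1.06% and 1.49% of those of replicates 2 and 3. Peak names fell into 2 series, with replicates 2 and 3 of NKX2-1 and H3K4me3 in one and all other lists in the other. What the series mark is not stated. An H3K4me3 region stood at the start of 8 of 8 epithelial marker genes, against 2 of 8 mesenchymal, 2 of 7 endothelial and 2 of 6 blood and immune ones. Those outside the epithelium included Col1a1, Col1a2, Kdr, Cldn5 and Spi1, and the part of such cells in the results was not tested.

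All 3 factors had regions at the 7 genes, and 6 genes had a region that they shared. A region was a stretch covered in at least 2 of the 3 NKX2-1 or H3K4me3 libraries, in both PRDM16 libraries or in the PRDM3 library. NKX2-1 regions were linked to 7 of 7 genes, against 51.4% of all protein-coding genes. PRDM16 regions were linked to 7 of 7, against 59.2% of all, and PRDM3 regions to 7 of 7, against 67.3% of all. NKX2-1 regions that overlapped both a PRDM16 and a PRDM3 region, called shared here, were linked to 6 of 7 genes, against 35.2% of all. Igfbp2 was the gene without one. Each shared region was counted singly, also where the same PRDM16 or PRDM3 region spanned several of them. Shared regions that overlapped no H3K4me3 peak in any library, called distal here, were also linked to those 6 genes, against 7.85% of all. An H3K4me3 region lay within 1 kb of an annotated start at 6 of 7 genes, against 57.4% of all, with Sema3a outside.

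The 7 genes also had more room. The stretch of chromosome whose peaks are linked to a gene had a median of 119 kb for the 7 genes, against 46.5 kb for all genes. Among the 9592 genes with a stretch at least as long as the shortest of the 7, that of Spock2, the shares were 60.4% for NKX2-1, 67.7% for PRDM16 and 79.5% for PRDM3. For shared regions the share was 42.4% and for distal shared regions 14.3%. These genes were held only to the lower limit of 55.2 kb and were not matched to the 7 in length of stretch. The 7 genes were chosen with results of these data known, so the counts describe them and were not tested.

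**Figure D1:**
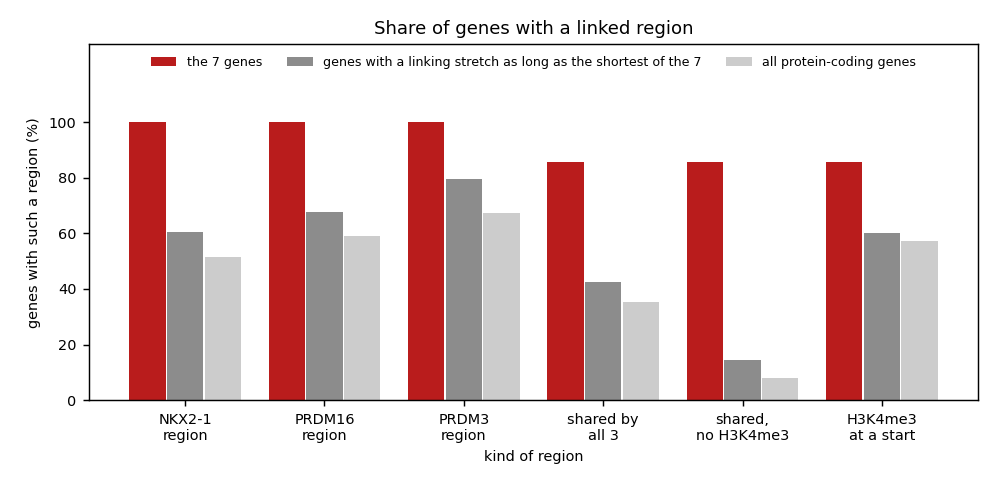
Share of genes (%) with a linked region of each kind, for the 7 genes (red), for the 9592 genes with at least as long a linking stretch as the shortest of the 7 (dark grey) and for all 21883 protein-coding genes (light grey). The widest gap is at shared regions without H3K4me3, found at 85.7% of the 7 genes, against 14.3% and 7.85% in the grey bars.

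The linked regions numbered 24 for NKX2-1, 47 for PRDM16 and 52 for PRDM3, and 14 were shared, of which 8 were distal. Timp3 had the most shared regions, 4, followed by Vegfa with 3, Sema3a, Col4a3 and Col4a4 with 2 each and Spock2 with 1. Most shared regions rested on weak NKX2-1 peaks, and some on a weak PRDM3 peak. When every list was held to a −log10 q of 5 or more, 1 shared region was left, at the Col4a3 and Col4a4 locus, and NKX2-1 regions were linked to 4 of the genes. The shared regions at the Vegfa start, at the Timp3 start and 9997 bases ahead of Timp3 kept NKX2-1 and PRDM16. They were lost through PRDM3, with a −log10 q of 2.00, 2.60 and 1.29. PRDM16 and PRDM3 regions each were still linked to 6 of the 7 at that threshold, Igfbp2 having none. No share of all genes is given at that threshold, so these counts of genes have nothing to be read beside. Without NKX2-1 replicate 1 there were 7 shared regions, 4 of them distal, and without replicate 3 there were 9, with NKX2-1 regions at 4 genes.

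Counted as single peaks in the 6 factor lists, Timp3 had 115, Sema3a 103, Vegfa 58, Igfbp2 36, Col4a3 35, Col4a4 29 and Spock2 22, against a median of 10 for all genes. Per 100 kb of linking stretch the order was different. Timp3 led with 77.1 and Vegfa followed with 55.4, whereas Sema3a, with a body of 478664 bases, had 17.8, below the median of 22.0 for all genes. Of the 398 factor peaks 57 reached a −log10 q of 5. These were 15 at Timp3, 12 at Vegfa, 10 at Sema3a, 8 at Col4a3, 6 at Col4a4, 4 at Spock2 and 2 at Igfbp2.

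**Figure D2:**
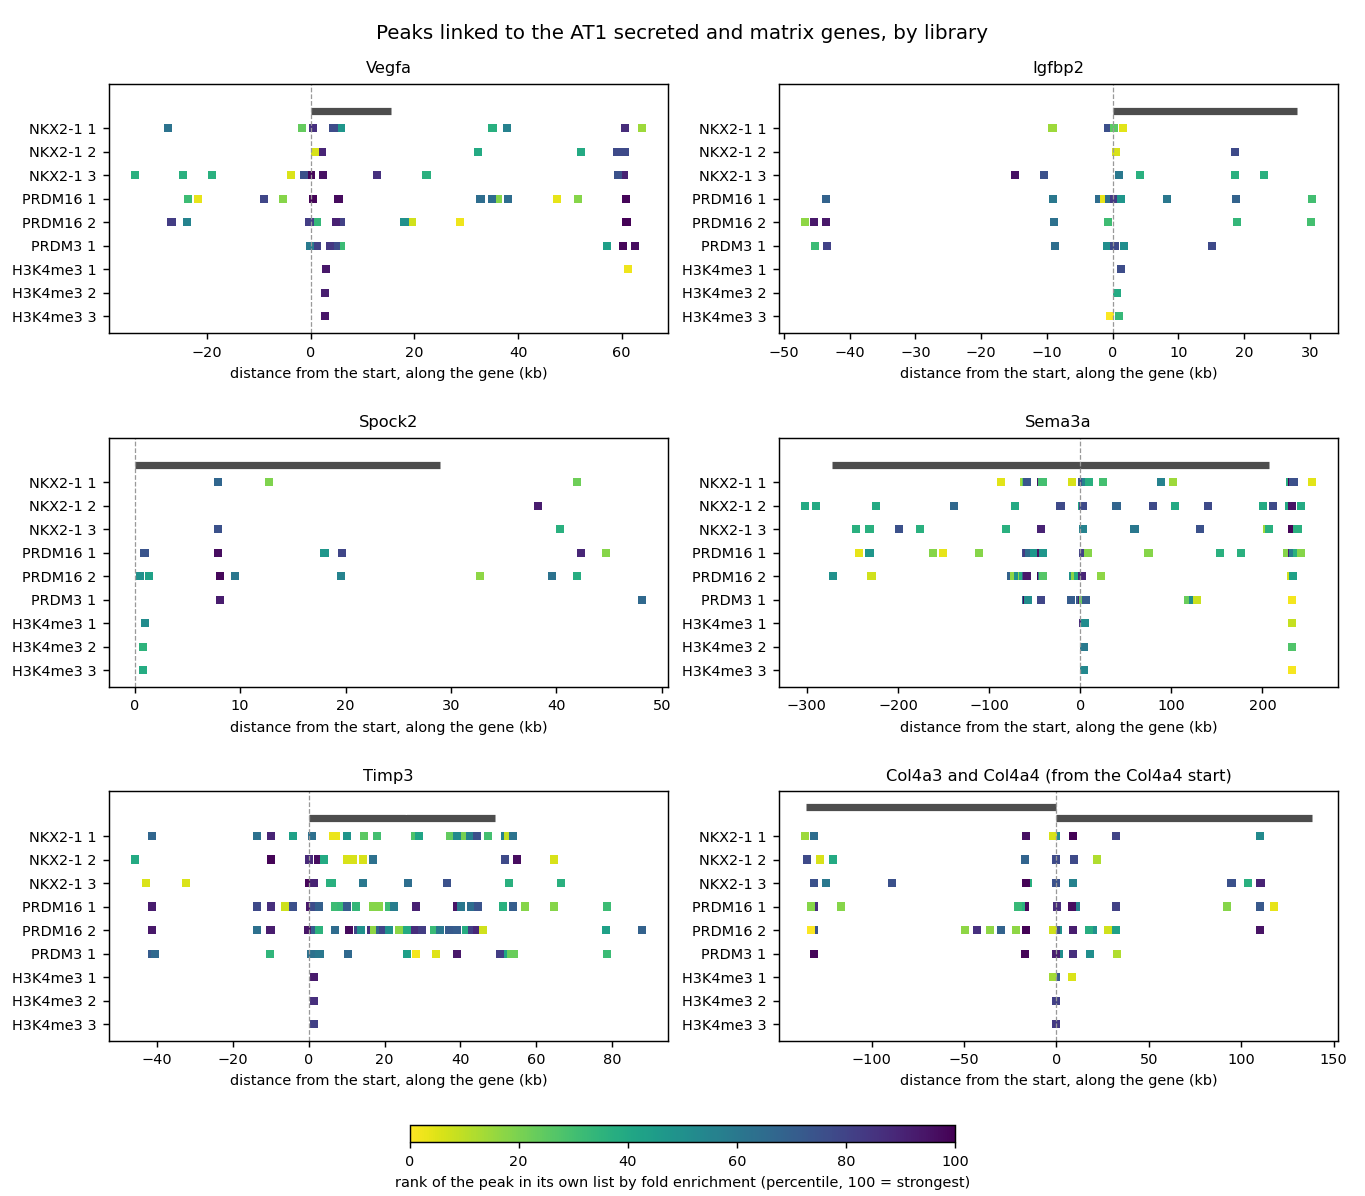
Position of each linked peak (square, at its middle) along the genes in kb from the first annotated start, by library from NKX2-1 at the top to H3K4me3 at the bottom; dark bars are gene bodies and colour is the rank in the library's own list (percentile, 100 = strongest). Timp3 carries 115 factor peaks across its body and flanks, whereas the highest Vegfa peak of each factor library stands near the start or about 60.4 kb along from it.

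**Figure D3:**
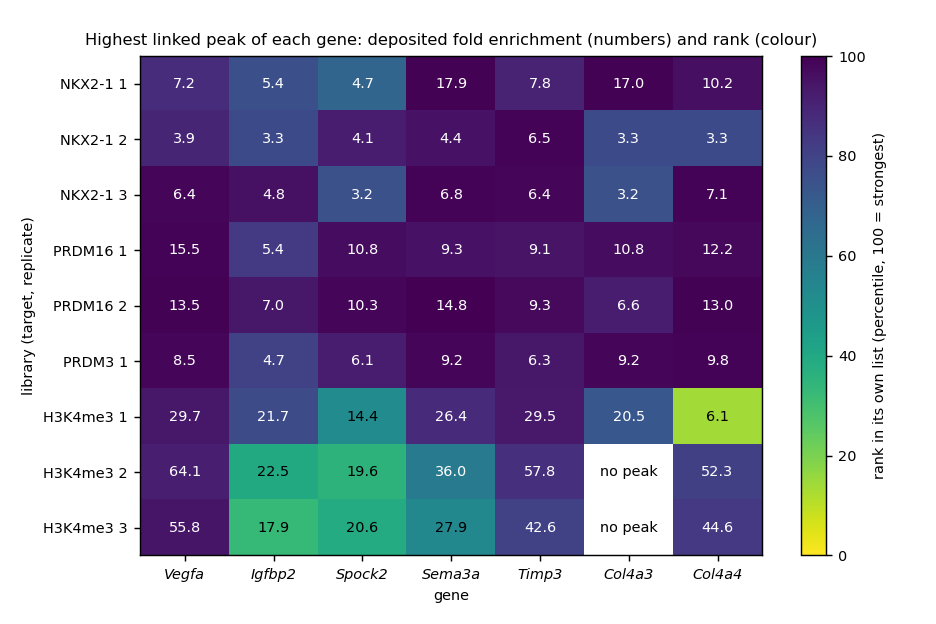
Fold enrichment of the highest peak linked to each gene in each library (number in the cell), coloured by its rank in that library's list (percentile, 100 = strongest). Igfbp2 has the lowest values in PRDM16 replicate 1 (5.45) and in PRDM3 (4.68), and Sema3a holds the highest value in NKX2-1 replicate 1 (17.89).

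Vegfa (chr17:46016993-46032377, minus strand) had the highest peak of each factor library either near its start or far beyond its other end. At the start, the shared region chr17:46032051-46032722 had a fold enrichment of 6.89 and 6.39 in NKX2-1 replicates 1 and 3, with no peak in replicate 2. PRDM16 had 15.49 and 4.89 there and PRDM3 had 3.53. The PRDM16 peaks, from 2 different antibodies, ranked 1144 in the list of replicate 1 and at a percentile of 81.9 in that of replicate 2. The same place carried H3K4me3 of 29.72, 64.10 and 55.82 (49.9 ± 17.9, SD, n = 3), the highest of the 7 genes in each library. The H3K4me3 region was 6602 bases long and ran into the gene body. Under it, 4903 bases past the start, chr17:46027174-46027774 had PRDM16 of 11.28 and 6.31, PRDM3 of 4.42 and NKX2-1 replicate 1 of 5.56. PRDM16 replicate 2 and PRDM3 were higher there than in the shared region at the start, and the other values lower. This stretch is outside the naming rule.

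The far pair of Vegfa regions, chr17:45971609-45972340 and chr17:45972842-45973434, lay 45019 and 43855 bases outside the gene on the side of its 3′ end, and no other protein-coding gene had a nearer end. One broad peak each of NKX2-1 replicate 1, PRDM16 replicates 1 and 2 and PRDM3 spanned both regions. PRDM16 reached 14.30 and 13.46 there and PRDM3 8.51, ranks of 98.6, 99.5 and 98.2 in their lists. NKX2-1 had 7.16, 3.26 and 4.00 over the first of the regions and 7.16, 3.26 and 3.20 over the second. No H3K4me3 peak overlapped either region, but H3K4me3 replicate 1 had a peak of 4.63 next to them, at chr17:45971055-45971345, under the same broad factor peaks. PRDM16 replicate 2 and PRDM3 were higher here than at the start, PRDM16 replicate 1 and NKX2-1 replicate 1 were close to their values there, and NKX2-1 replicate 3 was lower. Both regions drop out when the window is cut to 25 kb.

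Sema3a (chr5:13124822-13603485) is the longest of the genes, and its listed start, at base 13396784, lies well inside the annotated body. The region chr5:13353609-13353995, at -42982 bases from that start, had NKX2-1 peaks of 9.50 and 4.00 in replicates 1 and 3 and none in replicate 2. PRDM16 reached 9.32 and 14.80 there, and PRDM3 4.58. The value in PRDM16 replicate 2 ranked 214 in its list, and no H3K4me3 peak overlapped the region. The second shared region, chr5:13399060-13399737, sat 2614 bases past the start. It had 5.43, 3.26 and 2.69 in NKX2-1, 5.02 and 6.18 in PRDM16 and 5.89 in PRDM3, lower than in the first region in each NKX2-1 and PRDM16 library with a peak in both and higher in PRDM3. It lay under H3K4me3 of 26.42, 36.00 and 27.86 (30.1 ± 5.17, SD, n = 3), in a region of 5065 bases that begins 1280 bases past the listed start.

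The strongest NKX2-1 peaks linked to Sema3a were elsewhere, 25551 bases past the end of the gene at chr5:13628796-13629277. This region is outside the naming rule and was picked after its values were seen. NKX2-1 had 17.89, 4.37 and 6.80 there, the highest of any peak linked to the 7 genes in replicate 1, where it ranked 215 of 52685. PRDM16 had 7.88 in replicate 1 and no peak in replicate 2, and PRDM3 had 2.32, so the region was not shared. H3K4me3 was present but low at 5.47, 14.13 and 5.17, ranks of 8.7, 27.5 and 1.4 in their lists.

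Igfbp2 (chr1:72824480-72852474, plus strand) carried a marked start and no shared region. H3K4me3 at its starts was 21.69, 22.50 and 17.86 (20.7 ± 2.48, SD, n = 3). All 6 factor libraries had a peak over that H3K4me3 region. NKX2-1 had 5.43, 2.19 and 2.83 there, PRDM16 5.45 and 2.69 and PRDM3 4.48. The NKX2-1 peaks of different replicates met there over fewer than 20 bases, so they made no NKX2-1 region and hence no shared one. The highest NKX2-1 peaks linked to Igfbp2 were 5.43, 3.26 and 4.79, each in a different place, and those of PRDM16 were 5.45 and 7.01. PRDM3 reached 4.68. Within their lists these ranked 75.6, 77.7 and 95.5 in NKX2-1, 82.9 and 93.5 in PRDM16 and 80.4 in PRDM3, so the peaks of NKX2-1 replicate 3 and PRDM16 replicate 2 stood higher than the rest. In NKX2-1 replicate 1 the highest peak overlapped the start region, in replicate 2 it lay 18.7 kb into the gene and in replicate 3 it lay 14.9 kb ahead of it. The only NKX2-1 region, chr1:72843027-72843237 inside the gene, rested on 3.26 and 2.40 in replicates 2 and 3. The strongest peaks of PRDM16 replicate 2 and PRDM3 met instead at chr1:72780506-72781313, 43571 bases ahead of the start, with 3.77 and 7.01 for PRDM16 and 4.68 for PRDM3. Igfbp5, the neighbouring paralogue, had 5 shared regions. When any region in a gene's window was counted rather than the nearest end, all 7 genes had a shared region, Igfbp2 included, and the total was 20. A region can then count for several genes, and no share of all genes is given for that rule.

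Spock2 (chr10:60106257-60135198, plus strand) had its strongest PRDM16 and PRDM3 peaks inside the gene and others past its end. The single shared region, chr10:60113898-60114398, lay 7891 bases past the start and overlapped no H3K4me3 peak. PRDM16 reached 10.75 and 10.26 there and PRDM3 6.11, the highest peaks of those libraries at the gene. NKX2-1 had 4.75 and 3.20 in replicates 1 and 3, ranks of 67.4 and 75.4, and no peak in replicate 2. The only linked peak of NKX2-1 replicate 2, 4.07 at a rank of 92.4, lay past the end of the gene at chr10:60144260-60144676. A PRDM16 region, chr10:60148052-60148308, lay past the end as well, with 7.003 and 2.96. The start was marked by H3K4me3 of 14.39, 19.64 and 20.61 (18.2 ± 3.34, SD, n = 3), the lowest mean of the 7 genes, although Igfbp2 was lower in replicate 3. Neither NKX2-1 nor PRDM3 had a peak in that marked region, and PRDM16 had 4.30 and 3.12.

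Timp3 (chr10:86300412-86349505, plus strand) had the most regions of every factor, with 7 for NKX2-1, 17 for PRDM16 and 15 for PRDM3. At the start, chr10:86300184-86300959 had NKX2-1 peaks of 4.64, 3.64 and 6.39, PRDM16 peaks of 8.60 and 7.35 and a PRDM3 peak of 3.85. All 6 factor libraries and all 3 H3K4me3 libraries thus had a peak there. H3K4me3 was 29.54, 57.77 and 42.59 (43.3 ± 14.1, SD, n = 3) over a region of 3517 bases. Under the same H3K4me3, chr10:86301388-86302343 had 4.64 and 4.00 for NKX2-1 in replicates 1 and 3, 4.71 and 4.00 for PRDM16 and 3.85 for PRDM3. The NKX2-1 replicate 1 and PRDM3 values in these 2 regions are those of 1 peak each, which spans both.

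Ahead of the Timp3 start, chr10:86290056-86290774 lay 9997 bases outside the gene, with no H3K4me3 peak. NKX2-1 had 7.76 and 6.51 there in replicates 1 and 2 and no peak in replicate 3. The value in replicate 2 ranked 416 of its list and was the highest at any of the 7 genes in that library. PRDM16 had 6.13 and 6.53 and PRDM3 3.02, a rank of 34.7. The last of the 4 shared regions lay 10157 bases past the start.

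Col4a3 (chr1:82586921-82722059) and Col4a4 (chr1:82448419-82587034, minus strand) overlap at their heads, so a region inside one body can be linked to the other by a small margin, and they are described as a pair. The strongest shared region of the locus, chr1:82603127-82603968, lay inside Col4a3 and at -16698 bases from the Col4a4 start. It had 10.24, 3.24 and 7.06 in NKX2-1, 12.19 and 13.02 in PRDM16 and 9.81 in PRDM3, and no H3K4me3 peak. It was the shared region that remained at a −log10 q of 5 or more, where only NKX2-1 replicate 2 fell short with a value of 0.69.

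The other side of the pair of collagen starts held chr1:82577649-82578543, inside Col4a4 and 8753 bases past its start. NKX2-1 replicate 1 reached 16.96 there, rank 99.5, but replicate 3 had 2.64 and replicate 2 no peak, so the height rests on 1 library. PRDM16 had 10.75 and 6.56 and PRDM3 5.23, and H3K4me3 had a low peak of 5.0 in replicate 1 alone. Near the far end of Col4a3, chr1:82717722-82718249 had a PRDM3 peak of 9.16. PRDM16 had 6.30 and 4.24 there and NKX2-1 4.70 and 3.20 in replicates 1 and 3, with no H3K4me3 peak. At the start itself, chr1:82586800-82587276, which holds the 71 bases printed above, had NKX2-1 of 4.06, 3.26 and 3.20, PRDM16 of 6.40 and 4.63 and PRDM3 of 5.97. H3K4me3 was 20.45, 52.30 and 44.65 (39.1 ± 16.6, SD, n = 3), and since the starts are so close it cannot be told apart between the 2 genes.

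**Figure D4:**
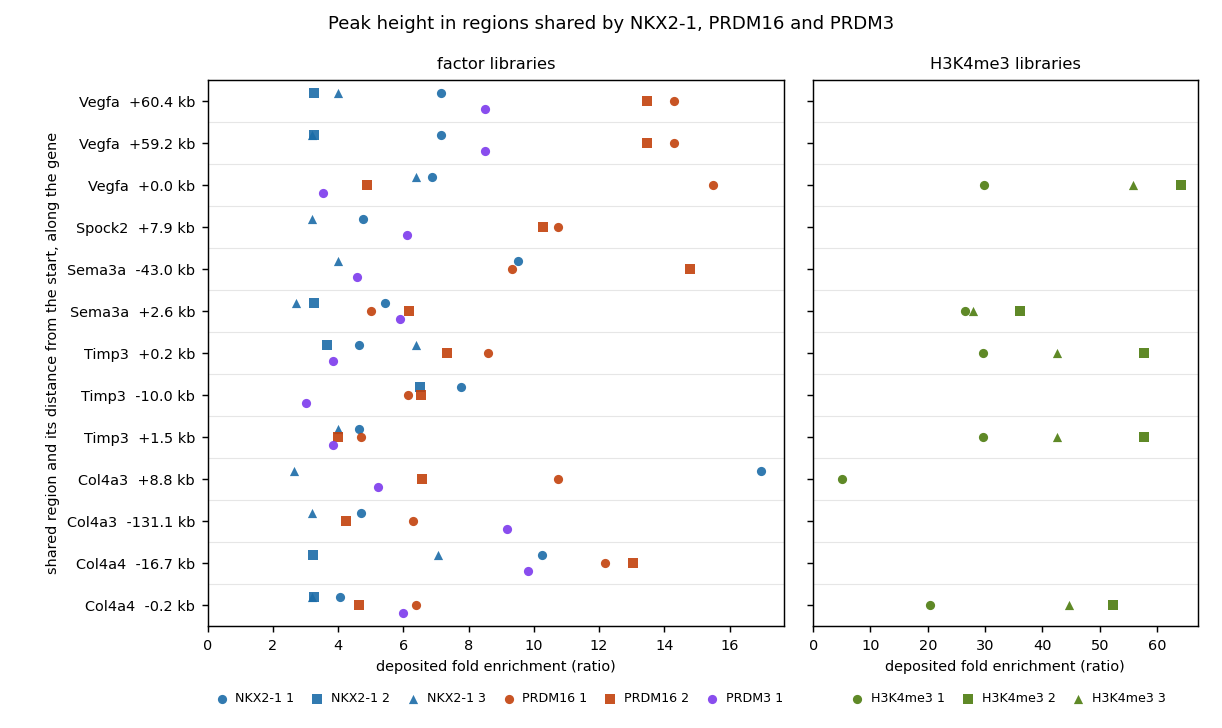
Deposited fold enrichment of every library in 13 of the 14 shared regions, with the distance of each region from the first annotated start along the gene (kb; from the Col4a4 start for the collagen pair); NKX2-1 is blue, PRDM16 orange, PRDM3 purple and H3K4me3 green, and a missing marker means no peak. Values are on each library's own scale; PRDM16 peaks are high at the far Vegfa regions (14.30 and 13.46) and at Spock2 (10.75 and 10.26), and H3K4me3 appears only near the starts and at 1 Col4a3 region.

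Several NKX2-1 values recurred in replicates 2 and 3, where peaks of the same small height stood at different genes. The 3.26 of replicate 2 had a −log10 q of 0.69 at Vegfa, Sema3a and the collagen start, and the 3.20 of replicate 3 had 0.76. With all lists held to a −log10 q of 1.3 or more, 6 shared regions at 4 genes were left, 3 of them distal, and no share of all genes is given there.

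Set against all genes with a peak in the same library, the highest peaks of these genes ranged from ordinary to near the top. In PRDM16 replicate 2 the highest Sema3a peak ranked above that of 98.8% of such genes, that of Vegfa above 97.9%, that of Col4a4 above 97.5%, that of Spock2 above 93.6% and that of Timp3 above 90.7%. The Igfbp2 and Col4a3 peaks ranked above 77.6% and 74.0%. PRDM16 replicate 1 gave mostly lower values, 94.1% for Vegfa, 87.4% for Col4a4 and 82.0% for Spock2 and Col4a3. There Sema3a had 75.2%, Timp3 74.1% and Igfbp2 42.9%. A gene with many linked peaks, such as Timp3 or Sema3a, has more from which its highest is taken. NKX2-1 replicate 1 gave another order, with Sema3a at 98.6% and Col4a3 at 98.2% but Spock2 at 31.9% and Igfbp2 at 42.5%. In NKX2-1 replicates 2 and 3 Sema3a stood at 81.8% and 95.8%, and Col4a3 at 38.4% and 31.7%. Spock2 had 69.9% and 31.7% in these libraries and Igfbp2 38.4% and 78.1%. In PRDM3 the collagen genes and Sema3a were highest, Col4a4 at 97.1% and both others at 95.9%. H3K4me3 over the Vegfa start ranked above 90.4%, 89.5% and 93.2% of genes with a linked H3K4me3 peak, whereas that of Spock2 ranked above 33.3%, 23.1% and 27.5%.

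Most factor peaks linked to the 7 genes lay away from H3K4me3. In NKX2-1 the share of linked peaks over an H3K4me3 region was 19.05%, 19.6% and 14.5% (17.7% ± 2.76, SD, n = 3), against 30.5%, 17.3% and 16.7% (21.5% ± 7.76) for all peaks of these libraries. In PRDM16 it was 13.2% and 16.5%, against 15.0% and 19.4%, and in PRDM3 28.8%, against 27.7%. With all peaks kept, the shares at the 7 genes thus lay within a few points of those of the whole list, other than in NKX2-1 replicate 1. Few linked peaks reached a −log10 q of 5. Of these, 4 of 10, 0 of 1 and 3 of 4 lay over H3K4me3 in the NKX2-1 libraries, against 64.7%, 91.6% and 91.03% of all peaks at that threshold. The counts were 5 of 17 and 4 of 17 in PRDM16, against 47.6% and 49.5%, and 1 of 8 in PRDM3, against 56.7%. The share was below that of all such peaks in each of the 6 libraries, on counts too small to give it closely. Between the factors, with all peaks kept, NKX2-1 stood 2.88 percentage points above PRDM16 in the mean, about the size of the spread between NKX2-1 libraries. Within the first peak-name series the NKX2-1 value was 19.05%, with both PRDM16 values in the same series, and within the second there was no PRDM16 list. The number of linked peaks was 63, 46 and 55 in NKX2-1, 91 and 91 in PRDM16 and 52 in PRDM3.

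Linked peaks reached the top 10 percent of their list in 6.35%, 10.9% and 20% of cases in NKX2-1, 13.2% and 15.4% in PRDM16 and 17.3% in PRDM3. In all peaks of these lists the share was 9.83% to 11.9%, tied values being kept together. These were 4 of 63, 5 of 46 and 11 of 55 peaks in NKX2-1, 12 of 91 and 14 of 91 in PRDM16 and 9 of 52 in PRDM3. The share at the 7 genes was higher in 5 of the 6 libraries, with NKX2-1 replicate 1 lower, on small counts. In NKX2-1 replicate 2 it was close to the 10.0% of the whole list.

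Related genes were counted by the same links. Each list below is to be read beside all protein-coding genes. Of these, 51.4% had an NKX2-1 region, 59.2% a PRDM16 region and 67.3% a PRDM3 region. A shared region was linked to 35.2% of them and a distal shared one to 7.85%. Of 25 paralogues of the 7 genes, 14 had an NKX2-1 region, 19 a PRDM16 region, 20 a PRDM3 region, 8 a shared region and 3 a distal shared one. Vegfd and Timp1 had a region of none of the factors. NKX2-1 regions were also missing at Vegfc, Igfbp1, Igfbp4, Igfbp6, Spock3, Sema3b, Sema3g, Timp4 and Col4a5. Col4a5, whose chain joins those of Col4a3 and Col4a4, had no PRDM16 region either, but 3 PRDM3 regions and H3K4me3 at its start. The most shared regions were at Igfbp5 with 5, Igfbp7 with 3 and Col4a1 with 2.

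Of 24 genes for receptors and binding partners, 18 had an NKX2-1 region, 21 a PRDM16 region, 24 a PRDM3 region and 12 a shared one. Igf1r, the receptor of the growth factors that Igfbp2 binds, led with 7 shared regions. Nrp1, a receptor for both semaphorins and Vegfa, had 6, of which 4 were distal, and Ddr1, a collagen receptor of epithelial cells, had 4. Kdr, the main endothelial receptor for Vegfa, had no NKX2-1 region, nor had Plxna1, Plxna3, Igf1, Mmp2 and Ddr2.

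Of 18 other basement membrane genes, 17 had an NKX2-1 region, 17 a PRDM16 region, 18 a PRDM3 region and 14 a shared one, 7 of them with a distal one. Lamc1, Tinagl1 and Sparc had 3 shared regions each, while Lamb2 lacked an NKX2-1 region and Nid1 a PRDM16 region. Of 19 other AT1 genes, 18 had an NKX2-1 region, 19 a PRDM16 region, 18 a PRDM3 region and 16 a shared one, 11 of them with a distal one. Lmo7 had 10, Hopx, a homeodomain-only protein of AT1 cells, had 8 and Gramd2 had 6, each more than any of the 7 secreted and matrix genes. The lists were chosen with earlier results known and their genes differ in length, so these counts were not tested against one another.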

How the data were processed

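Peak lists of 9 of the 12 samples were used, 1 list per sample. Trimmomatic, Bowtie2, MACS2, HOMER and the build mm10 are named, without versions, per the submitters' processing notes. Settings and use of a control library are not given in the sources used here. As deposited by the authors, fold enrichment is a ratio of a peak to background. The −log10 p, the −log10 q and the score are likewise as deposited. The score is 10 times the −log10 p in factor lists and 10 times the −log10 q in H3K4me3 lists, cut to a whole number. Peak lists hold no read depth, so no counting interval is given.

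Chromosomes 1 to 19, X and Y were read with Python 3.11.15, numpy 2.4.6 and pandas 2.3.3, and figures were drawn with matplotlib 3.10.9. Regions were at least 20 bases long and overlapped when they shared at least 1 base. Gene bodies, starts and promoters were RefSeq's of GRCm38.p6. Starts came from the promoter table for 6 of the 7 genes, and for Col4a3 and other genes without a listed start either gene end was used. Linking and overlap were tested on simulated data.

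The members and gene lists were chosen with earlier results of these data known, so values are descriptions and no test was run. All 7 genes are named, with at most 3 shared regions each, by best mean rank over the factor lists. Listed genes are named if they lack a region of a factor or are among up to 3 with the most shared regions, ties included, and some genes that this rule selects are not reported here. Replicate numbers share only a number. Alternatives were stricter q thresholds, equally long lists, more overlap, other links and windows, and leaving out each library.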

Additional observations from a re-analysis of the deposited data

How the results depend on the processing

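Of 95 alternative values, 71 stayed within the limits set for a change, 24 moved and 0 changed direction. The 0 carries no weight, since all values but the difference between NKX2-1 and PRDM16 are counts or shares, which have no direction. The limits were wide, as 4 genes with a shared region in place of 6 counted as within them. Shares of all genes are given only without the alternatives, so counts of genes under them have no such share beside them. With every list held to a −log10 q of 5 or more, NKX2-1 regions were linked to 4 genes and shared regions to 1. The shared regions then numbered 1, of which 1 was distal, and the shares of linked peaks over H3K4me3 were 38.3% for NKX2-1 and 26.5% for PRDM16. The NKX2-1 value is a mean of 40%, 0% and 75% over 10, 1 and 4 peaks, so it rests on single libraries. At 1.3 NKX2-1 regions were linked to 4 genes, 6 regions were shared, 3 of them distal, and the shares were 39.2% and 20.8%. With the 20000 strongest peaks of each list 7 regions were shared, 5 of them distal, and the shares were 28.6% and 27.8%. The share over all peaks of each NKX2-1 and PRDM16 list rose too, at both thresholds and with the 20000 strongest peaks. It was above the share at the 7 genes in each of these lists, so the rise is not particular to these genes. With any region in the window the shares were 21.7% and 19.2%. With NKX2-1 and H3K4me3 regions in all 3 libraries, NKX2-1 regions were linked to 4 genes and 7 regions were shared, 4 of them distal.

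Leaving out 1 library in turn gave NKX2-1 regions at 4 to 6 genes, with 4 without replicate 3 and 5 without replicate 1. Shared regions then numbered 7 to 16 and distal ones 4 to 9. Genes with a shared region numbered 4 to 6. The causes of these moves were not tested, although stricter lists and more libraries by construction keep fewer regions. H3K4me3 at a start was found at 6 genes with either gene end and at 7 within 2 kb, both chosen after seeing the data, since the Sema3a region begins 1280 bases past its start. With the replicate block over numbers 1 and 2, NKX2-1 stood 4.47 percentage points above PRDM16 in the share of linked peaks over H3K4me3, against 2.88 without it. The numbers are not stated to pair the libraries.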
